A study of Chlorocebus sabaeus with 10 samples.

Results

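The genes described here are 42 genes of hepatic stellate cells, of the myofibroblasts they turn into, and of the extracellular matrix that both cells make. They were chosen by gene symbol for what they are known to do, with earlier results of these data known. Of the 42 genes, 41 had a row among the 23352 genes in the table of estimated counts, each with a single transcript, and 31 had enough counts to be tested. PDGFRA was not analysed here. The 10 genes with a row that were not tested are given by their counts.

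Hepatic stellate cells are pericyte-like cells that lie between hepatocytes and the sinusoidal endothelium and store vitamin A. When activated, for instance under TGF-beta or PDGF, they take on a contractile myofibroblast form and lay down fibrillar collagen, which is how liver scarring begins. In healthy liver, contractile genes are also expressed by vascular smooth muscle, and matrix genes by portal fibroblasts around the bile ducts.

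The study asked which liver molecules differed after short-term exposure to a high fructose (HFr) diet. Female vervet monkeys (Chlorocebus sabaeus), all kept on chow beforehand, were assigned to the HFr diet (n = 5) or to continued chow (n = 5) for 6 weeks. The assignment was stratified with the aim of balancing age and body weight. The mean age that the study reported was nonetheless higher on HFr than on chow, though not significantly so. Each library came from the biopsy of 1 animal, and the libraries were made from polyadenylated RNA of the whole biopsy. In such bulk tissue, fewer cells of a type and less RNA per cell cannot be told apart.

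The libraries held 2977282 to 4992505 estimated counts, of which mitochondrial transcripts took 41.8 to 67.8% on HFr and 34.7 to 73.6% on chow. This left 864571 counts on nuclear transcripts in the shallowest library (chow 4) and 2657103 in the deepest (chow 3), a 3.07-fold difference. Levels are therefore given as normalized counts (CPM, counts scaled to a common library size after TMM), and as they are not divided by transcript length they are compared between animals and never between genes. Differences are log2 fold changes of HFr over chow with their standard errors (SE) from edgeR's quasi-likelihood test, and "lower" or "higher" refers to HFr. A call is an unadjusted p under 0.05, the threshold of the study. None of the 7948 transcripts tested passed after Benjamini-Hochberg adjustment in edgeR (0.0%), DESeq2 passed 2 and edgeR without TMM scaling passed 1, none of them among the 31 genes. The adjusted p of each of the 31 genes was 0.9996, so every call below is a single-gene comparison that did not survive correction.

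A group of 4 contractile and cytoskeletal genes was lower on the HFr diet, whereas the matrix genes among the 31 gave no called difference. Of the 31, 5 had an unadjusted p under 0.05, against 341 of all 7948 transcripts (4.29%). As the genes were listed with earlier results known, the larger share among them is a description and not independent evidence. The 4 lower among them were ACTA2, TAGLN, MYL9 and GSN, and lower calls made up 2.23% of all transcripts. The single higher gene was BMPER, a modulator of BMP signals, and higher calls made up 2.06% of all transcripts. No collagen, proteoglycan, matrix glycoprotein, matrix protease or protease inhibitor of the 31 was called. Their only tested protease was MMP14, and their only tested inhibitors were TIMP1 and TIMP2. Outside the 31, the proteases MMP15, ADAMTS1 and ADAMTS2 were called, as given below. The count of 5 rested in part on single animals, being 3 without chow 1 and 9 without chow 3. In direction, 11 genes had a log2 fold change above 0 and 20 below it, against 49.8% above 0 among all transcripts. The median over the 31 genes was -0.16 and over all transcripts -0.001. The number above 0 was 15 without chow 1, 7 without HFr 2 and 6 without chow 3.

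**Figure D1:**
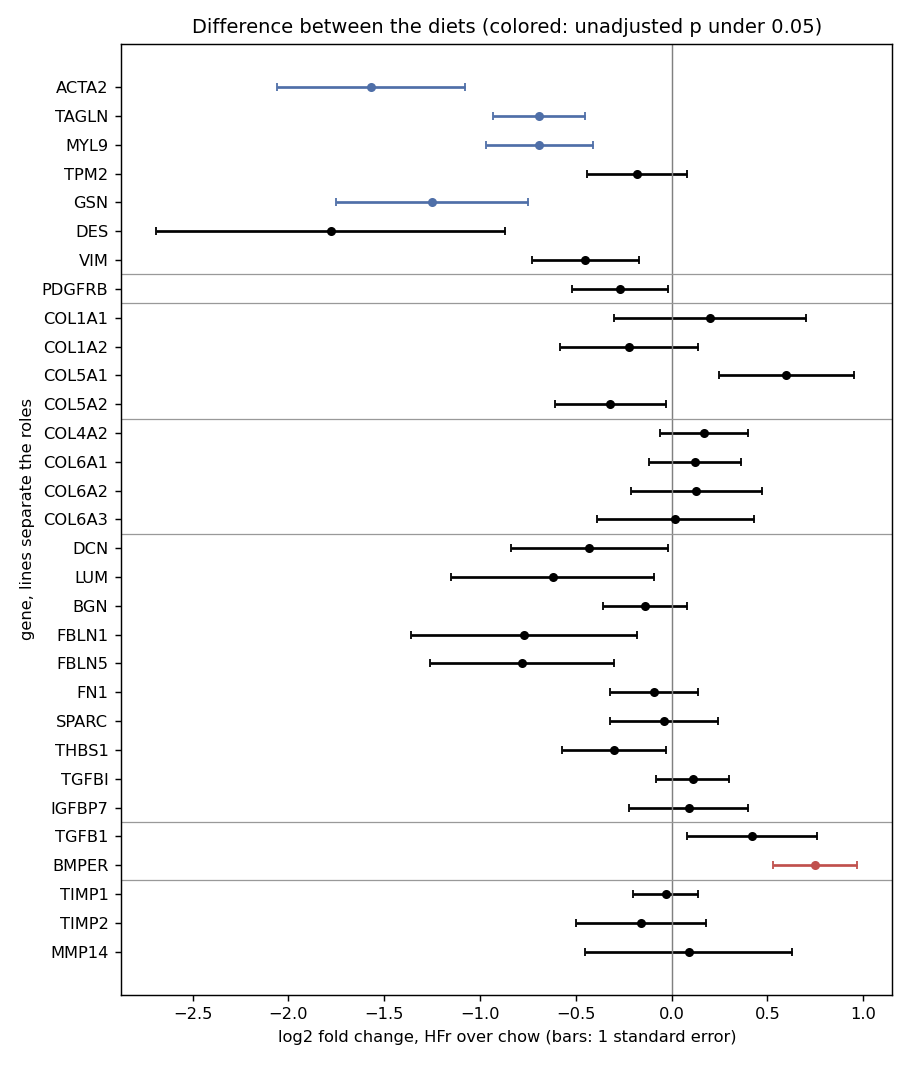
Log2 fold change of HFr over chow (horizontal axis, bars are 1 SE) for each of the 31 tested genes, with horizontal lines separating the roles and color marking an unadjusted p under 0.05. The 4 colored genes left of 0 are ACTA2, TAGLN, MYL9 and GSN, and the colored gene right of 0 is BMPER.

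The contractile and cytoskeletal group held the actin and myosin parts and the intermediate filaments that mark an activated stellate cell or a smooth muscle cell. All 7 tested genes of its 9 were below 0, with a median log2 fold change of -0.69, and 4 of the 7 were called. Among all transcripts, 49.8% were above 0 and 4.29% were called. The group belongs to a list chosen with earlier results known. Its genes were measured in the same animals, so they are not separate observations. The number called in the group was 2 without chow 1 and 6 without chow 3. The gene most used to recognise a myofibroblast is ACTA2, which encodes alpha smooth muscle actin (ChlSab1.1 chromosome 9, 82359086 to 82372446, minus strand). ACTA2 measured 6.78, 6.73, 5.65, 1.33 and 5.54 CPM in HFr animals 1 to 5, a mean of 5.21 ± 2.24 (SD, n = 5). In chow animals 1 to 5 it measured 10.3, 16.4, 3.85, 16.7 and 32.2 CPM, a mean of 15.9 ± 10.5 (SD, n = 5). Each of the HFr values was under the mean on chow, and of the chow animals only chow 3 fell within the HFr range. The log2 fold change was -1.57 (SE 0.49, unadjusted p = 0.00646, adjusted p = 0.9996 in edgeR), and the exact two-sided permutation test gave p = 0.0397. The counts behind these values were low, 6 to 30 on HFr and 21 to 75 on chow. The call was kept with every animal left out in turn, when the log2 fold change ran from -1.85 to -1.17, and of the other alternatives only the equal-variance test of the normalized values lost it, while the gene was not tested where 10 counts were required in every animal. ACTA2 shares nearly its whole protein sequence with other actins. Transcript sequences were not compared, and whether part of its estimated counts belongs to a paralog such as ACTG2 was not tested.

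TAGLN encodes transgelin, an actin-binding protein of smooth muscle that is induced by TGF-beta (chromosome 1, 108574007 to 108575348, plus strand). It measured 9.80, 9.64, 15.7, 13.6 and 9.30 CPM in HFr animals 1 to 5. On chow it measured 19.0, 19.1, 10.6, 21.2 and 24.8 CPM in the same order of replicates. The overlap again came from chow 3 alone, with the other 4 chow animals above every HFr animal. The means were 11.6 ± 2.88 on HFr and 18.9 ± 5.21 on chow (SD, n = 5 each). This gave a log2 fold change of -0.69 (SE 0.24, unadjusted p = 0.0122 in edgeR, exact permutation p = 0.0238). It stayed called with every animal left out and was lost only where TMM scaling was dropped (unadjusted p = 0.0557).

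MYL9, the regulatory light chain of smooth muscle myosin (chromosome 2, 57397874 to 57406630, plus strand), measured 27.1, 20.6, 29.9, 32.7 and 25.3 CPM on HFr. The chow animals measured 50.0, 40.7, 20.2, 35.4 and 73.5 CPM. Chow 3 had the lowest value of all 10 animals and the other 4 chow animals lay above all HFr animals. Between the diets, the log2 fold change was -0.69 (SE 0.28, unadjusted p = 0.0262 in edgeR, exact permutation p = 0.0873). The call was lost without chow 5 (log2 fold change -0.44, unadjusted p = 0.0958), without HFr 2 (unadjusted p = 0.0633), without chow 1 (unadjusted p = 0.0557), with the replicate number as a block (unadjusted p = 0.0604), where TMM scaling was dropped (unadjusted p = 0.0625) and in the equal-variance test (unadjusted p = 0.119).

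GSN encodes gelsolin, which severs and caps actin filaments (chromosome 12, 18253324 to 18285938, minus strand). Its HFr values were 4.52, 8.52, 4.84, 1.56 and 7.91 CPM. Its chow values were 29.5, 10.1, 4.22, 7.08 and 15.2 CPM, so that the ranges overlapped in chow 3 and chow 4, and chow 1 was far above the rest. The log2 fold change was -1.25 (SE 0.50, unadjusted p = 0.0256 in edgeR, exact permutation p = 0.103). Without chow 1 it was -0.68 (unadjusted p = 0.158) and without HFr 4 the call was also lost (unadjusted p = 0.0562). It was lost as well in the equal-variance test (unadjusted p = 0.136) and with voom sample weights (unadjusted p = 0.0721).

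DES encodes desmin, the muscle intermediate filament that marks stellate cells in several species (chromosome 10, 105312707 to 105320782, plus strand). It was detected unevenly, with 1.51, 2.69, 6.86, 0.666 and 2.57 CPM on HFr. The chow values were 8.68, 3.94, 0, 3.03 and 34.5 CPM, so that chow animals held both the lowest and the highest value. This gave a log2 fold change of -1.78 (SE 0.91, unadjusted p = 0.0696 in edgeR, exact permutation p = 0.294) and was not called. It was -0.53 without chow 5, and without chow 3 or without HFr 3 it came under the threshold (unadjusted p = 0.00885 and unadjusted p = 0.0373). With voom sample weights the unadjusted p was 0.976. Of the 20 alternatives in which DES was tested, 4 put it under the threshold and 16 did not.

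The remaining cytoskeletal genes gave no call. VIM, the intermediate filament vimentin of mesenchymal cells, had a log2 fold change of -0.45 (SE 0.28, unadjusted p = 0.134 in edgeR), with 69.8 to 123 CPM on HFr and 75.3 to 189 CPM on chow. TPM2, a tropomyosin of the thin filament, had a log2 fold change of -0.18 (SE 0.26, unadjusted p = 0.491), with 47.3 to 82.4 CPM on HFr and 43.6 to 114 CPM on chow. TPM1, another tropomyosin, and CNN1, the smooth muscle protein calponin, held only 95 and 53 counts over all 10 animals and were not tested.

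**Figure D2:**
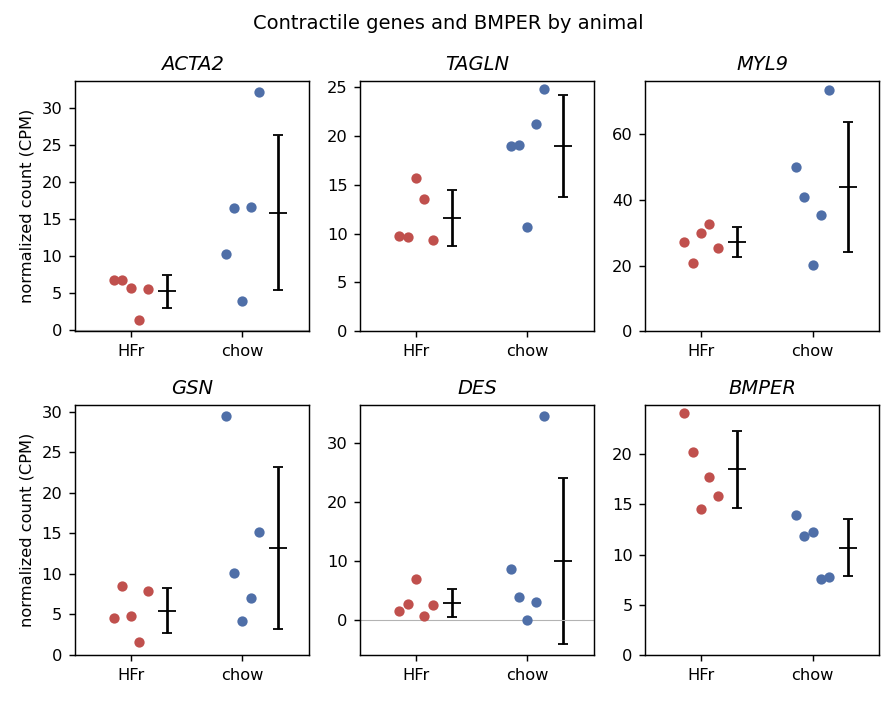
Normalized count (CPM, vertical axis) of ACTA2, TAGLN, MYL9, GSN, DES and BMPER in each HFr animal (red) and each chow animal (blue), with the mean and SD of 5 animals in black beside the points. In ACTA2 and TAGLN a single chow animal sits among the HFr points, in MYL9 the same animal lies just below them, and in BMPER the 5 HFr points lie above the 5 chow points.

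Smooth muscle cells of vessel walls express the same contractile genes, and their own markers were also lower in part. Of 10 smooth muscle markers, all had a row and 5 were tested, 1 above 0 and 4 below, with a median log2 fold change of -0.20. There were 2 calls, both lower, while 4.29% of all transcripts were called. SMTN, CALD1 and MYLK were not called, with log2 fold changes of -0.12 (SE 0.31), -0.20 (SE 0.20) and 0.10 (SE 0.31). ACTG2, an actin of enteric and vascular muscle, measured 1.56 to 8.07 CPM on HFr and 1.28 to 27.1 CPM on chow (log2 fold change -1.65, SE 0.70, unadjusted p = 0.0339 in edgeR). Its call was lost in 5 of the 10 fits that left out an animal, with a log2 fold change of -0.75 without chow 5. SYNM, the intermediate filament protein synemin, measured 0.666 to 4.14 CPM on HFr and 2.75 to 6.89 CPM on chow (log2 fold change -1.06, SE 0.43, unadjusted p = 0.028), and its call was also lost in 5 of 10 such fits. MYH11, the defining smooth muscle myosin heavy chain, held 0 to 3 counts per animal on HFr and 2 to 44 on chow and was not tested. The summed level of the 10 markers was 233 to 293 CPM on HFr and 226 to 404 CPM on chow, of which CALD1, the actin-binding protein caldesmon that many other cells also make, held 83.7 to 92.6%. The other 9 markers, summed after this was seen, reached 18.4 to 33.1 CPM on HFr. On chow they reached 38.6, 38.5, 16.7, 38.4 and 62.0 CPM in animals 1 to 5. As with ACTA2 and TAGLN, chow 3 was the only chow animal not above all HFr animals. The part of smooth muscle RNA in the contractile genes was not tested. Of 10 skeletal muscle markers, 9 had a row and summed to 5.79 CPM at most, and the defining genes CKM and MB were at 0 in all animals.

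Among the listed receptors and the retinoid enzyme of stellate cells and pericytes, PDGFRB was tested without a call, whereas LRAT and RGS5 held too few counts to be tested. PDGFRB, the PDGF receptor of pericytes and stellate cells (chromosome 23, 52724005 to 52766234, minus strand), measured 25.6, 20.0, 19.0, 26.7 and 26.3 CPM on HFr. Chow animals measured 47.3, 20.4, 17.6, 26.8 and 30.8 CPM, enclosing the whole HFr range. Between the diets, the log2 fold change was -0.27 (SE 0.25, unadjusted p = 0.288 in edgeR, exact permutation p = 0.452). LRAT, which esterifies retinol for storage and is a defining marker of quiescent stellate cells (chromosome 7, 101297691 to 101302520, plus strand), had no count in any animal. RGS5, a regulator of G protein signaling in pericytes, held 19 counts over all 10 animals. Of 15 further quiescent stellate markers, 14 had a row and 10 had enough counts to be tested, without a call. Their log2 fold change was above 0 in 8 and below in 2, with a median of 0.1. Among all transcripts, 49.8% were above 0. NGFR and GDF2 of this list held only 12 and 5 counts over all 10 animals. The summed level of the list was 247 to 430 CPM on HFr and 203 to 486 CPM on chow.

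Fibril-forming collagens, the product by which a myofibroblast is recognised in scar tissue, showed no called difference, and their median log2 fold change was -0.01 over 4 tested genes of 5. COL1A1, the alpha-1 chain of type I collagen (chromosome 16, 43134779 to 43150930, plus strand), measured 7.54, 12.6, 4.03, 5.11 and 2.77 CPM on HFr. The chow values of 9.60, 5.69, 1.28, 3.03 and 8.73 CPM covered most of the same range. The log2 fold change was 0.20 (SE 0.50, unadjusted p = 0.701 in edgeR, exact permutation p = 0.762).

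COL1A2, the alpha-2 chain of the same collagen (chromosome 21, 54602398 to 54632780, minus strand), measured 85.2, 110, 109, 80.0 and 59.1 CPM on HFr. On chow it measured 160, 60.4, 36.7, 85.4 and 176 CPM, and both the lowest and the highest values were chow animals. This gave a log2 fold change of -0.22 (SE 0.36, unadjusted p = 0.549 in edgeR, exact permutation p = 0.563). Both chains of type I collagen lay within 1 SE of 0, with opposite signs, and each changed sign with single animals left out, COL1A1 from -0.23 to 0.52 and COL1A2 from -0.44 to 0.05. COL3A1, type III collagen (chromosome 10, 74455068 to 74484445, plus strand), held 5 to 19 counts per animal on HFr and 5 to 31 on chow, too few to be tested.

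COL5A1, the type V collagen chain that sets the width of fibrils, had the largest log2 fold change above 0 among the collagens, 0.60 (SE 0.35, unadjusted p = 0.103 in edgeR). It measured 83.7, 90.4, 72.6, 170 and 49.7 CPM on HFr and 79.5, 33.7, 42.5, 104 and 49.6 CPM on chow. HFr 4 was the highest animal, and without it the log2 fold change was 0.26. The gene came under the threshold without HFr 5 (unadjusted p = 0.0426) and without chow 4 (unadjusted p = 0.0263). Its partner chain COL5A2 had a log2 fold change of -0.32 (SE 0.29, unadjusted p = 0.284).

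Basement membrane and microfibrillar collagens lay close to 0. COL4A2, a type IV chain of the basement membrane, had a log2 fold change of 0.17 (SE 0.23). The 3 type VI chains, which form beaded microfibrils around cells, had log2 fold changes of 0.12 (SE 0.24) for COL6A1, 0.13 (SE 0.34) for COL6A2 and 0.02 (SE 0.41) for COL6A3. None of the 4 was called, and their unadjusted p ran from 0.474 to 0.967. COL4A1, the other main type IV chain, held 55 counts in all and was not tested. The listed spans of COL4A1 and COL4A2 lie head to head on chromosome 3 and overlap by 155 bases on opposite strands, and whether the counting used strand was not given in the sources used here.

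Proteoglycans and matrix glycoproteins were all 10 tested, 8 with a log2 fold change below 0 and 2 above it, and none was called. DCN, the collagen-binding proteoglycan decorin, measured 249, 188, 217, 148 and 114 CPM on HFr. On chow it measured 501, 111, 105, 143 and 370 CPM, with chow 1 and chow 5 above all other animals. Its log2 fold change was -0.43 (SE 0.41, unadjusted p = 0.319 in edgeR), and it was 0.01 without chow 1. LUM, the related proteoglycan lumican encoded 32061 bases away from DCN on chromosome 11, measured 28.6, 33.0, 44.0, 14.2 and 13.7 CPM on HFr. Its chow values were 91.6, 15.8, 13.2, 17.2 and 65.7 CPM, with the same pair of chow animals on top. Between the diets, the log2 fold change was -0.62 (SE 0.53, unadjusted p = 0.254).

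Chow 1 and chow 5 were also the highest animals for the elastic fiber proteins. FBLN1, fibulin 1, measured 3.81 to 10.9 CPM on HFr, while chow 1 had 27.9 and chow 5 had 20.7 CPM and the other chow animals 2.02 to 5.56 CPM. FBLN5, fibulin 5, measured 9.69 to 33.9 CPM on HFr, 56.0 CPM in chow 1, 62.0 CPM in chow 5 and 8.44 to 23.8 CPM in the other chow animals. Their log2 fold changes were -0.77 (SE 0.59) and -0.78 (SE 0.48), neither called.

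The remaining glycoproteins were near 0. FN1, fibronectin, which hepatocytes secrete into plasma as well, had a log2 fold change of -0.09 (SE 0.23). BGN, the proteoglycan biglycan, had -0.14 (SE 0.22), SPARC, a collagen-binding matrix protein, -0.04 (SE 0.28), and THBS1, thrombospondin 1, which can release latent TGF-beta, -0.30 (SE 0.27). TGFBI, a matrix protein induced by TGF-beta, and IGFBP7, a binding protein of insulin-like growth factors, had 0.11 (SE 0.19) and 0.09 (SE 0.31).

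**Figure D3:**
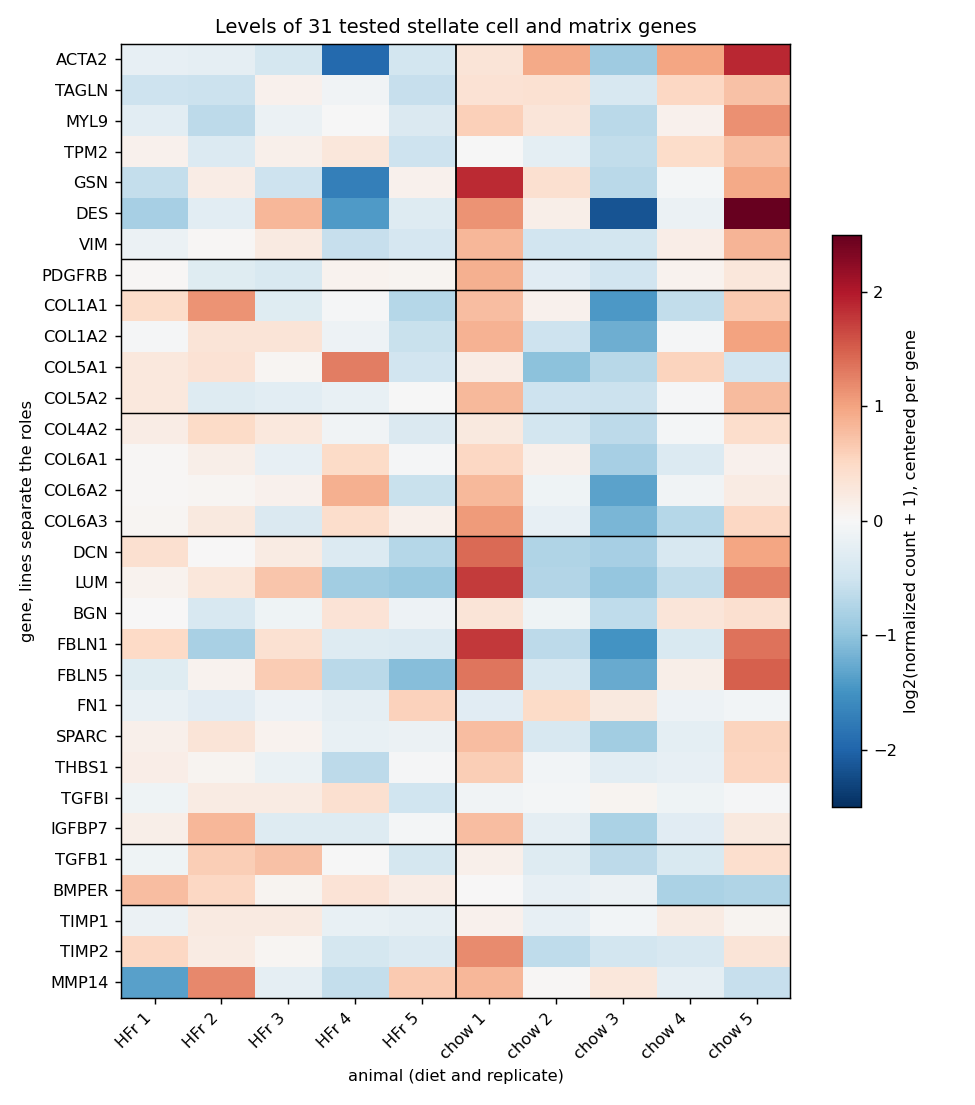
Log2(normalized count + 1), centered for each gene (color), for the 31 tested genes (rows, lines separate the roles) in the 5 HFr animals (left of the vertical line) and the 5 chow animals (right). Chow 1 and chow 5 are above the gene's mean for most genes and chow 3 is below it, whereas the HFr columns are paler.

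BMPER was the clearest single difference. It encodes a secreted protein that binds BMPs and limits or carries their signal, and it was first described in endothelial cell precursors (chromosome 21, 24255866 to 24500720, minus strand). HFr animals measured 24.1, 20.2, 14.5, 17.8 and 15.8 CPM, a mean of 18.5 ± 3.80 (SD, n = 5). Chow animals measured 13.9, 11.8, 12.3, 7.58 and 7.81 CPM, a mean of 10.7 ± 2.84 (SD, n = 5). Every HFr animal was above every chow animal, which held for no other tested gene of the 31 and for 0.541% of all transcripts in either direction. The closest values were 14.5 CPM in HFr 3 and 13.9 CPM in chow 1. The log2 fold change was 0.75 (SE 0.22, unadjusted p = 0.00374, adjusted p = 0.9996 in edgeR), and the exact permutation test gave p = 0.00794, the smallest that 5 against 5 animals allow. The counts were 36 to 90 on HFr and 15 to 67 on chow. With each animal left out in turn the log2 fold change was 0.64 to 0.86 and stayed called, and it was lost only where TMM scaling was dropped (unadjusted p = 0.0895).

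TGFB1, the cytokine that drives collagen synthesis in myofibroblasts (chromosome 6, 35648677 to 35674365, minus strand), measured 4.52, 8.07, 8.88, 4.89 and 3.36 CPM on HFr. On chow it measured 5.48, 3.72, 2.75, 3.54 and 6.89 CPM, within the same range but for chow 3 below it. This gave a log2 fold change of 0.42 (SE 0.34, unadjusted p = 0.239 in edgeR, exact permutation p = 0.278).

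Of the enzymes that cut and crosslink matrix and their inhibitors, 3 of 7 were tested and none was called. TIMP1, the metalloproteinase inhibitor that is induced in liver scarring (chromosome X, 44760531 to 44765571, plus strand), measured 17.0, 22.2, 22.2, 16.4 and 16.0 CPM on HFr. The chow values were 20.3, 16.2, 18.0, 21.7 and 19.8 CPM, all within the HFr range. Between the diets, the log2 fold change was -0.03 (SE 0.17, unadjusted p = 0.867 in edgeR, exact permutation p = 0.833), with the smallest SE of the 31 genes. TIMP2, another inhibitor, had -0.16 (SE 0.34), and MMP14, the membrane-bound collagenase, 0.09 (SE 0.54). MMP2, a gelatinase, held 65 counts over all animals, TIMP3 6, and the crosslinking enzymes LOX and LOXL1 79 and 55, and these 4 were not tested.

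For most of the 31 genes, the animals differed from each other more on chow than on HFr. The SD of the log2 level was larger on chow in 26 of the 31 genes (83.9%), against 4423 of 7948 transcripts (55.6%). A mean centered log2 level over the 31 genes was 0.71 in chow 1, 0.61 in chow 5 and -0.71 in chow 3, and it lay between -0.28 and 0.11 in the HFr animals. Chow 1 and chow 5 were the 2 highest animals for 14 of the 31 genes (45.2%), against 368 of 7948 transcripts (4.63%). These 14 were MYL9, GSN, DES and VIM of the cytoskeleton, the receptor PDGFRB, the collagens COL1A2, COL5A2 and COL6A3, and the matrix proteins DCN, LUM, FBLN1, FBLN5, SPARC and THBS1. Chow 3 was the lowest animal for 19 genes (61.3%), against 10.6% of all transcripts. The summed level of all 41 genes with a row was 2330 to 2450 CPM on HFr and 2050 to 3180 CPM on chow. The 5 exceptions were MMP14, with a log2 SD of 0.53 on chow and 1.02 on HFr, TGFBI with 0.07 and 0.35, TIMP1 with 0.16 and 0.23, TGFB1 with 0.43 and 0.50, and FN1 with 0.31 and 0.35.

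**Figure D4:**
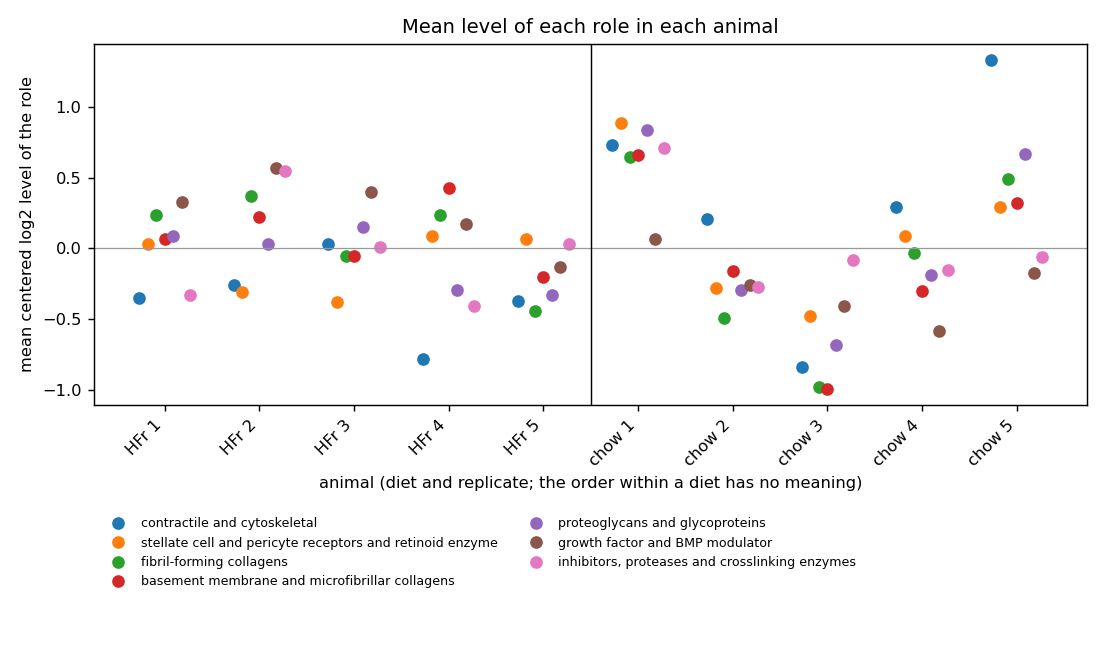
Mean centered log2 level (vertical axis) of the tested genes of each role (color) in each animal, HFr left and chow right of the line. In chow 3 all 7 roles are below 0, in chow 1 all 7 are above 0, and the contractile and cytoskeletal role reaches 1.33 in chow 5.

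Markers of other liver cells differed between the same animals. Portal fibroblast markers, of which all 10 had a row and 7 were tested, summed to 254 CPM in chow 1, 205 CPM in chow 5 and 58.5 CPM in chow 3, and to 75.5 to 160 CPM on HFr. Hepatocyte markers, 9 of 10 with a row, summed to 40900 CPM in chow 1, the lowest animal, and to 85900 CPM in chow 3, the highest, with 49000 to 73900 CPM on HFr and 58900 CPM in chow 5. All biopsies thus expressed the markers of the labelled tissue. The part that the makeup of the biopsies had in the order of the animals was not tested. Of the 7 tested portal fibroblast markers, 2 had a log2 fold change above 0 and 5 below, with a median of -0.24. A single one was called, while 4.29% of all transcripts were. This was CLEC3B, the matrix-associated protein tetranectin, higher on HFr with a log2 fold change of 1.05 (SE 0.43, unadjusted p = 0.0299 in edgeR). Its call was lost in 3 of the 10 fits without an animal. Of 9 tested endothelial markers, 6 were above 0 and 3 below, with a median log2 fold change of 0.15. KDR, the main VEGF receptor, was the only one called, higher by 0.57 (SE 0.19, unadjusted p = 0.0109). The summed level of the endothelial list was 364 to 470 CPM on HFr and 277 to 464 CPM on chow. No mesothelial, macrophage, lymphocyte, cholangiocyte, red blood cell or hepatocyte marker was called. Their summed levels on HFr and on chow were 69.3 to 170 and 67.5 to 168 CPM for mesothelium, 375 to 532 and 338 to 540 CPM for macrophages, 18.4 to 30.3 and 16.9 to 23.4 CPM for lymphocytes, 59.1 to 88.5 and 38.4 to 94.2 CPM for cholangiocytes, and 101 to 335 and 61.1 to 346 CPM for red blood cells. Single genes carried several of these sums, PRG4 with 67.2 to 94.3% of the mesothelial, CD14 with 53.6 to 82.4% of the macrophage, ANXA4 with 60.5 to 89.8% of the cholangiocyte and HBB with 96.9 to 99.6% of the red blood cell sum. Without these genes the sums were 7.85 to 25.0 CPM on HFr and 9.54 to 38.8 CPM on chow for mesothelium, and 88.6 to 221 and 59.6 to 233 CPM for macrophages. They were 6.0 to 28.9 and 10.6 to 32.9 CPM for cholangiocytes, and 0.449 to 4.44 and 1.53 to 7.35 CPM for red blood cells.

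The other genes of the TGF-beta pathway were mostly below 0, with 10 of 11 tested genes of 21 listed having a log2 fold change under 0 (median -0.24) and 1 called. As the list holds both activating parts and inhibitors such as SKI, its direction is not a measure of pathway activity. The number called was 0 without HFr 3 or without chow 5, and 3 without chow 3. Among all transcripts, 49.8% were above 0 and 4.29% were called. The same shares stand beside the BMP, PDGF and matrix turnover lists below. SKI, a corepressor that binds SMAD proteins and holds back TGF-beta targets, measured 18.1, 17.5, 12.9, 17.1 and 16.6 CPM on HFr and 21.0, 18.4, 22.2, 22.2 and 25.7 CPM on chow. Every HFr animal was below every chow animal, by a margin of 18.1 against 18.4 CPM at the closest. The diets did not overlap, in either direction, for 0.541% of all transcripts. The log2 fold change was -0.40 (SE 0.16, unadjusted p = 0.0267 in edgeR, exact permutation p = 0.00794), and the call was lost where TMM scaling was dropped (unadjusted p = 0.306), without HFr 3 (unadjusted p = 0.0639), without chow 5 (unadjusted p = 0.0633) and with the replicate block (unadjusted p = 0.0509).

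Of the BMP pathway, to which BMPER belongs by function, 16 of 29 listed genes were tested. Their log2 fold change was above 0 in 5 and below in 11, against 49.8% above 0 among all transcripts. In this list 3 genes were called, against 4.29% of all transcripts. CHRD, the BMP antagonist chordin, was higher, at 208 ± 60.2 CPM on HFr and 150 ± 26.0 CPM on chow (log2 fold change 0.47, SE 0.22, unadjusted p = 0.0474 in edgeR). TWSG1, twisted gastrulation, a partner of chordin in BMP binding, was lower, at 12.2 ± 2.72 and 17.4 ± 4.22 CPM (log2 fold change -0.53, SE 0.22, unadjusted p = 0.0304). BMPR1A, a type I BMP receptor, was lower, at 14.2 ± 2.81 and 19.8 ± 4.02 CPM (log2 fold change -0.46, SE 0.20, unadjusted p = 0.0366). All 3 calls were lost in 5 or more of the 10 fits that left out an animal, chordin in 7, TWSG1 in 6 and BMPR1A in 5. Of the 4 PDGF ligands, 2 were tested and PDGFC was called, with 6.41 ± 1.53 CPM on HFr and 9.62 ± 2.73 CPM on chow (log2 fold change -0.56, SE 0.25, unadjusted p = 0.0437), a call lost in 4 of the 10 fits.

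Genes of collagen processing and matrix turnover included 18 tested genes of 30, 13 above 0 and 5 below, with a median of 0.20 and 4 called. Of all transcripts, 49.8% were above 0 and 4.29% were called. P4HA2, a catalytic subunit of the prolyl hydroxylase that stabilises the collagen helix, was higher, with 2.64, 5.83, 4.03, 4.67 and 5.34 CPM on HFr and 2.97, 1.31, 0.917, 0 and 3.68 CPM on chow (log2 fold change 1.37, SE 0.48, unadjusted p = 0.0119 in edgeR, 7 to 27 counts against 0 to 13). MMP15, a membrane-bound metalloproteinase, was also higher, at 25.3 ± 7.58 and 17.1 ± 2.17 CPM (0.59, SE 0.21, unadjusted p = 0.0139), a call lost without HFr 2 (unadjusted p = 0.0532). ADAMTS1, a protease that cleaves large proteoglycans, was lower, at 10.2 ± 4.29 and 18.3 ± 5.08 CPM (-0.86, SE 0.30, unadjusted p = 0.0118). ADAMTS2, which removes the amino-terminal propeptide of procollagen, was lower, at 4.36 ± 1.50 and 7.69 ± 2.62 CPM (-0.83, SE 0.31, unadjusted p = 0.0182), a call lost without chow 1 (unadjusted p = 0.0512). Of the 9 calls in the pathway and turnover lists, 8 were lost where TMM scaling was dropped, P4HA2 being kept, and 3 of the 4 calls among cell type markers were lost there, ACTG2 being kept. Of 37 other matrix proteins, 34 had a row and 22 were tested, none was called, and the median was -0.04.

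**Figure D5:**
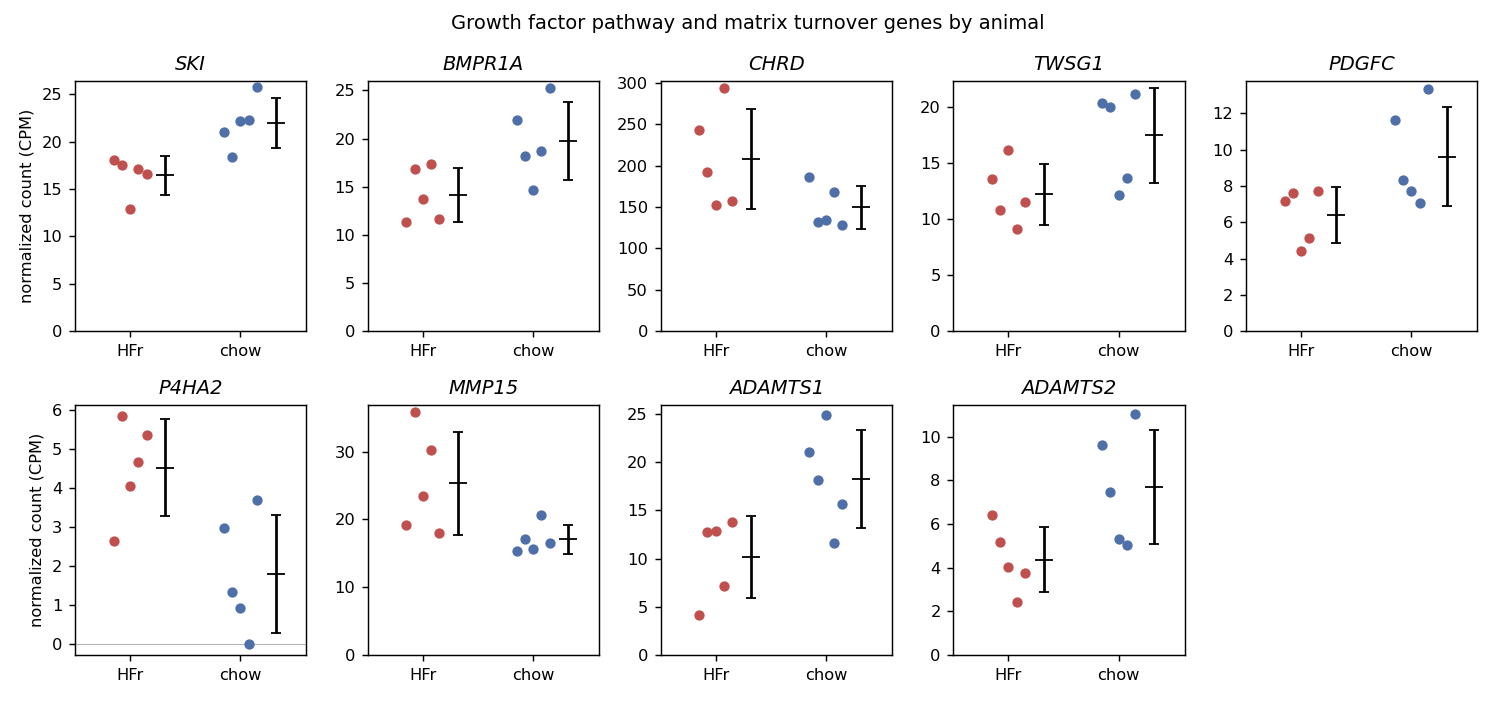
Normalized count (CPM, vertical axis) in each HFr animal (red) and each chow animal (blue) for the genes of the TGF-beta, BMP, PDGF and matrix turnover lists with an unadjusted p under 0.05, with mean and SD of 5 animals in black. In SKI the HFr points lie below all chow points.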

How the data were processed

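Total RNA of flash-frozen liver was made into Illumina TruSeq stranded mRNA libraries and sequenced as paired-end reads by Illumina HiSeq. Per the labels, the submitters' processing notes name CASAVA 1.8, FastQC, STAR 2.5.3a and Partek Flow. Reads were aligned by the authors to ChlSab1.1 and attributed by expectation-maximization to transcripts of Ensembl release 93, which gave the deposited estimated counts (97.69% whole numbers). The authors also deposited a signal table of the same counts scaled by TMM, used here only for the equal-variance test. Coordinates are those of the tables, counted from 1 with the end included.

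After rounding of the estimated counts to whole numbers, filterByExpr with a minimum count of 10 and a minimum total of 15 kept 7948 of 28078 transcripts. HFr was compared with chow by edgeR's quasi-likelihood test after TMM scaling (factors 0.6066 to 1.488), with diet as the only term and a threshold of 0.05. The SE is the size of the log2 fold change divided by the square root of F. Centered levels are log2(CPM + 1). Exact permutation tests were two-sided over 252 assignments. Replicates were separate animals, and the biological coefficient of variation was 29%. Fits used edgeR 4.0.16, DESeq2 1.42.0 and limma 3.58.1 under R 4.3.3, and the procedure was tested on simulated data.

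The 42 genes and all lists were chosen with earlier results of these data known. Values in every animal are given for called or non-overlapping genes of the 42 and for ACTA2, DES, PDGFRB, LRAT, COL1A1, COL1A2, TIMP1 and TGFB1 whatever their values, and counts for RGS5, COL3A1 and the other untested genes. Values of COL5A1, DCN and LUM in every animal were added after they were seen. From each pathway list all called genes are named, and from each marker list up to 3. The lists were TGF-beta signaling, BMP signaling, PDGF ligands, other matrix proteins, collagen processing and matrix turnover, and markers of quiescent stellate cells, portal fibroblasts, smooth muscle, mesothelium, skeletal muscle, hepatocytes, macrophages, lymphocytes, endothelial cells, cholangiocytes and red blood cells. No list test was run. From the TGF-beta list, 1 gene is not reported here and is left out of its counts.

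The alternatives were DESeq2, its size factors in edgeR, library size only, an equal-variance test of the signal values, a filter at any count, a filter at 10 counts in every animal, fits without mitochondrial transcripts or with their percentage as a covariate, counts summed by gene, voom with sample weights, the replicate number as a block, and each animal left out.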

Additional observations from a re-analysis of the deposited data

Results flagged for a closer look

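In the 62 groups of 5 animals (31 genes on each diet), a sample far from the others was sought by its gap to the nearest animal on the log2 scale, and 2 groups were found. Chance alone gives about 1 in 20 groups. ACTA2 in HFr 4 was 1.33 CPM, while the other HFr animals had 5.54 to 6.78 CPM. Its count there was 6, and without this animal ACTA2 kept its direction and its unadjusted p under 0.05. FN1 in HFr 5 was 1300 CPM, while the other HFr animals had 718 to 798 CPM. The log2 fold change of FN1 without HFr 5 was -0.29.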

How the results depend on the processing

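Over 21 alternatives, 579 values of single genes kept their direction and side of the threshold, 39 changed sign, 12 came under the threshold and 13 rose above it. No gene of the 31 passed adjustment in any fit. In place of 5 genes, 3 were called with library size only, 2 with the equal-variance test and 3 with 10 counts in every animal. With library size only, TAGLN, MYL9 and BMPER were lost and a gene not called in the main fit came under the threshold. Where 10 counts were required in every animal, 24 genes were tested and 7 lay above 0 in place of 11. ACTA2 and GSN were not among these 24. In the contractile and cytoskeletal group, 1 gene was called with the equal-variance test and 2 with 10 counts in every animal, in place of 4. With an animal left out, calls numbered 3 to 9, calls in the contractile and cytoskeletal group 2 to 6 and genes above 0 numbered 6 to 15.

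Some log2 fold changes crossed 0. With library size only they were -0.00072 for COL6A3, 0.0042 for SPARC and 0.0015 for TIMP1, and TIMP1 was 0.0026 with the equal-variance test. With voom weights they were 0.08 for SPARC, 0.05 for TIMP2 and -0.33 for MMP14. With an animal left out, the ranges were -0.23 to 0.52 for COL1A1, -0.44 to 0.05 for COL1A2, -0.05 to 0.30 for COL6A1, -0.13 to 0.42 for COL6A2, -0.24 to 0.52 for COL6A3, -0.62 to 0.01 for DCN, -0.29 to 0.03 for FN1, -0.17 to 0.39 for IGFBP7, -0.46 to 0.40 for MMP14, -0.42 to 0.00012 for PDGFRB, -0.21 to 0.20 for SPARC, -0.10 to 0.02 for TIMP1, -0.32 to 0.30 for TIMP2 and -0.33 to 0.01 for TPM2. The cause was not tested.

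The animals share only a number between the diets, as the correlations of same-numbered animals were -0.283 to 0.0956. With the replicate number as a block, 271 transcripts and 5 of the 31 genes were called (ACTA2, TAGLN, GSN, BMPER and COL5A1), SPARC was 0.08 and MMP14 -0.03. The transcripts called numbered 123 with library size only and 756 of 16066 with the filter at any count, against 341.

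Low counts limit ACTA2, DES, GSN, COL1A1, COL6A3, TGFB1, MMP14 and the 10 untested genes. COL6A3, TGFB1 and MMP14 held 272, 187 and 127 counts over all 10 animals.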
